A study of Caenorhabditis elegans with 26 samples.

Results

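Caenorhabditis elegans adults with a weak flp-17 array (AEF378) were compared with adults with a strong one (AEF373), across all genes measured. flp-17 encodes precursors of FMRFamide-like peptides. The members were the libraries that the labels assign to these strains, 10 of the 26 libraries of the study, 5 from each strain, and no measured value was used to choose them. The study as a whole read poly(A) RNA of whole day 1 adults from 5 strains that differ in flp-17, to ask how its level bears on downstream processing. In AEF378 the array ashEx67 places the promoter of gcy-31 (gcy-31p) before a flp-17::GFP fusion, and the marker coel::RFP labels coelomocytes red. In AEF373 an array without a number puts FLP-17 under the flp-17 promoter (flp17p), ends it with the flp-17 3' untranslated region, and is marked by unc-122p::mCherry. Both strains carry the reporter zcls4[hsp-4p::GFP]V and were placed in the background of AEF231, an outcross of SJ4005 into N2 that carries the hsp-4 promoter::GFP reporter alone (6 libraries, used here only to set levels beside both). The array of AEF373 was brought in from another strain, YUW133, whose flp-17 null background was removed in the crosses.

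Each array strain is 1 line, each array is extrachromosomal and not passed to every animal, and both strains were sorted for their fluorescent marker with a large particle biosorter 24 h before collection. AEF231 was washed and replated instead. All animals were grown on NGM plates with OP50-1 bacteria and were pooled within a sample. Promoter, GFP fusion, 3' end, marker and line differ together between AEF378 and AEF373, so that the level of flp-17 and these other differences cannot be told apart. Whether replicate libraries stem from separate cultures is not stated. A p-value here sets a strain difference against the spread among replicate libraries, estimated from all 26 libraries. Whether that spread holds variation between cultures is not known. Replicates 1 to 3 of both strains were in batch 1 and replicates 4 and 5 in batch 2.

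FLP-17 peptides are made by the BAG neurons, a pair of head neurons that sense carbon dioxide and oxygen. They act through the receptor EGL-6 on the motor neurons of egg laying, and slow egg laying. gcy-31 encodes a soluble guanylate cyclase used by the BAG neurons, and unc-122 a protein of coelomocytes, the scavenger cells of the body cavity. The cuticle of the worm is secreted by the epidermis, first in the embryo before hatching and again at each larval moult, and its genes follow the timing of the moults.

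Total counts of the 10 libraries lay between 9659877 and 13057368, and 13315 genes were tested. Values are CPM, counts scaled to library size with TMM factors, and differences are log2, AEF373 minus AEF378, ± SE, so that a positive difference is a higher level in AEF373. Adjusted p-values come from the quasi-likelihood test of edgeR, with Benjamini-Hochberg adjustment over all genes tested, and a gene is called higher or lower where the adjusted p is below 0.05. Of all genes, 1278 (9.6%) were called, 788 higher (5.92%) and 490 lower (3.68%) in AEF373. Counts of called members in the lists below stand beside these shares. At least 2-fold differences were called in 267 (2.01%) and 53 (0.398%). The libraries of the strains did not overlap in 452 genes that were higher (3.39%) and 341 that were lower (2.56%), 793 in all (5.96%). The first principal component, 37.6% of the variance, ran from -38.9 to -8.90 in AEF378. It was between 32.2 and 44.1 in the batch 1 libraries of AEF373, and at -5.73 and -0.793 in its batch 2 libraries.

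**Figure D1:**
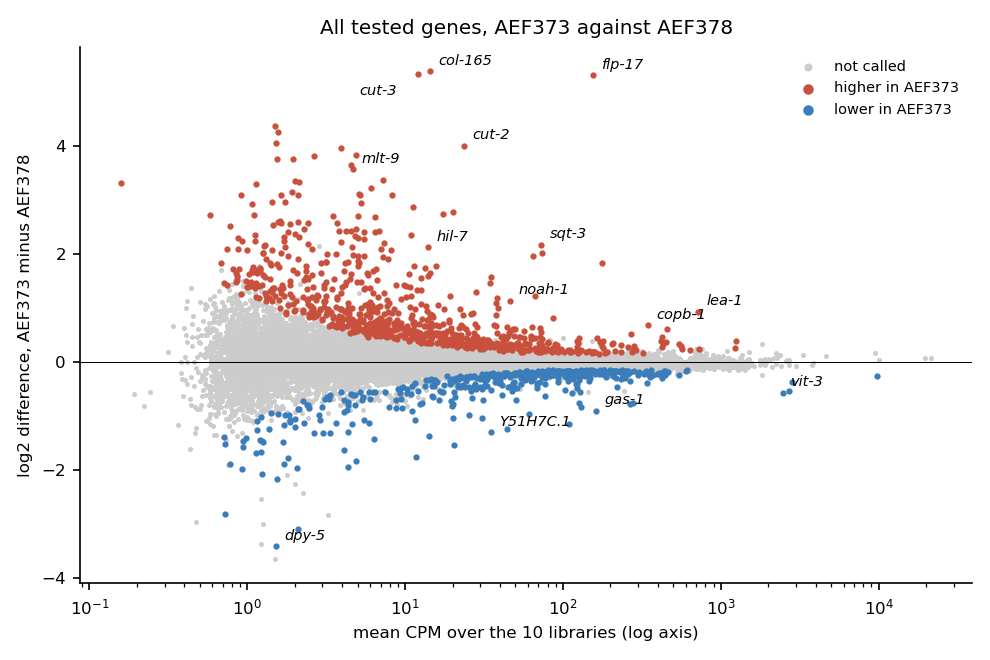
Mean CPM over the 10 libraries (log axis) against the log2 difference, AEF373 minus AEF378, for all 13315 genes tested. Red points are the 788 genes called higher in AEF373, blue points the 490 called lower, grey points the rest. flp-17 stands at 5.30, near the cuticle genes cut-3 and col-165, and most genes with high CPM lie close to 0.

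The arrays were compared first through their own genes. flp-17 (chromosome IV, 17190204 to 17191891, on the minus strand of WBcel235) stood in AEF378 at 7.56, 6.45, 7.11, 9.18 and 7.64 CPM in replicates 1 to 5. In AEF373 it was read at 293, 332, 329, 262 and 289 CPM. Every AEF373 library was above every AEF378 library, and the libraries of each strain lay close together. The difference was 5.30 ± 0.14, 39.4-fold (adjusted p = 1.02e-17), and it was 5.49 in batch 1 and 5.03 in batch 2. AEF231 was at 3.80 ± 1.49 CPM (SD, n = 6), so that flp-17 in AEF378 lay 0.99 log2 units above that level and in AEF373 6.29. Reads of the arrays and of the chromosomal gene cannot be told apart.

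The table's row gfp, which has no position in the annotation, was at 164, 159.7, 156, 196 and 139.8 CPM in AEF378. It was at 132, 131, 152, 119 and 110.4 CPM in AEF373. The lowest AEF378 library lay within the range of AEF373, and the difference was -0.35 ± 0.08 (adjusted p = 0.00434). It was -0.20 in batch 1 and -0.55 in batch 2. The call ended with batch 1 libraries alone, within batch 1 and with only the 10 libraries in the fit. AEF378 carries GFP in the reporter and in the array, AEF373 in the reporter only, and reads of the sources cannot be told apart.

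unc-122 (chromosome I, 14872112 to 14875436) was at 3.31, 2.37, 2.64, 3.14 and 2.18 CPM in AEF378 and at 4.82, 5.72, 5.25, 3.39 and 4.71 CPM in AEF373. The strains did not overlap, at 0.80 ± 0.20 (adjusted p = 0.00606), and only the promoter of this gene is part of the AEF373 marker. The call of unc-122 ended within batch 2. gcy-31 (chromosome X, 2419955 to 2427504), whose promoter drives flp-17 in AEF378, was at 1.70, 0.379, 1.42, 0.910 and 1.55 CPM in AEF378. Replicates 1 to 5 of AEF373 gave 0.516, 1.58, 1.33, 0.798 and 1.12 CPM. The libraries overlapped, with a difference of -0.14 ± 0.42 (adjusted p = 0.884), so that at this depth no difference in gcy-31 was detectable. hsp-4 (chromosome II, 7350112 to 7352645), which encodes the endoplasmic reticulum (ER) chaperone BiP, was at 496, 514, 522, 470.3 and 519 CPM in AEF378 and 508, 449.6, 422, 485 and 429 CPM in AEF373. The ranges overlapped, and the difference of -0.14 ± 0.06 missed the threshold (adjusted p = 0.163).

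**Figure D2:**
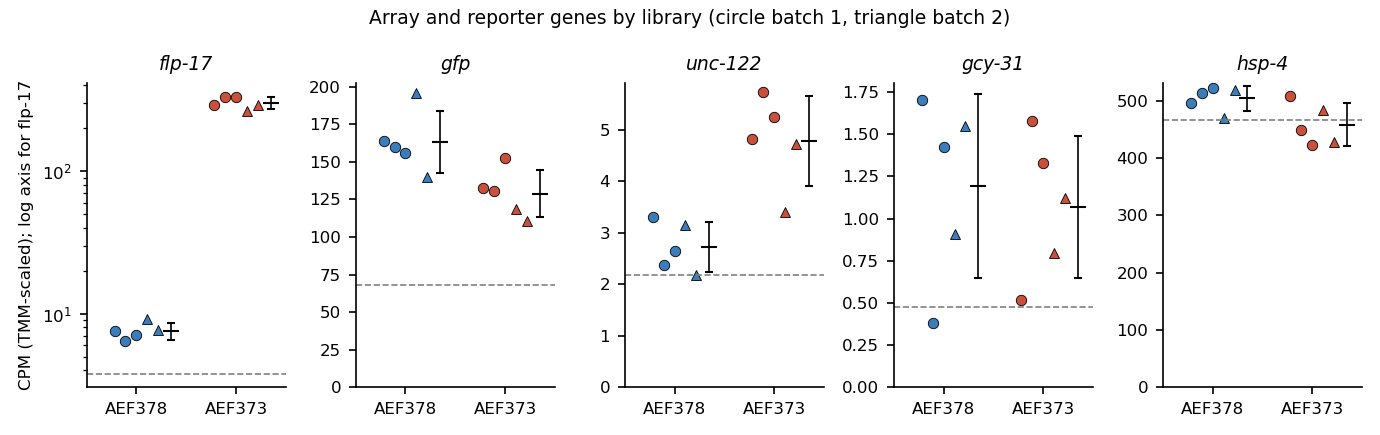
CPM in each of the 5 libraries of AEF378 (blue) and AEF373 (red) for flp-17 (log axis) and for gfp, unc-122, gcy-31 and hsp-4 (linear axes from 0). Circles are batch 1 and triangles batch 2, black bars the mean ± SD over 5 libraries, dashed lines the AEF231 mean. The strains separate in flp-17 and unc-122 and overlap in the other panels.

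Genes that make, release or receive FLP-17 were set beside flp-17 itself. Of 13 tested genes of this list, 2 were higher, flp-17 and unc-31, and none was lower. unc-31, needed for release of dense-core vesicles, was at 0.56 ± 0.17 (adjusted p = 0.0262), with libraries that overlapped, and its call ended without any one of AEF378 replicates 1, 3 and 4 and AEF373 replicates 2, 3 and 5. The receptor gene egl-6 was at -0.15 ± 0.16 (adjusted p = 0.639) and the prohormone convertase gene egl-3 at 0.03 ± 0.07 (adjusted p = 0.832). None of 7 tested genes of the BAG neurons was called, with a median of 0.02, and none of 29 other FMRFamide-like peptide genes. Of 75 neuropeptide-like and insulin-like genes, 1 was called, a count of 2 without AEF378 replicates 3 or 4 or AEF373 replicate 5. It was nlp-51 at 0.90 ± 0.22 (adjusted p = 0.00361).

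The lists of the cuticle and of moulting were described next, beginning with genes needed to moult. Of 27 tested moulting effectors, 14 were higher in AEF373 and none was lower, with a median of 0.63, beside a median of -0.0033 over all genes tested and the 5.92% of genes called higher. mlt-9, a gene needed to shed the old cuticle, was read at 0.378, 0.949, 0.609, 0.662 and 0.728 CPM in AEF378. It was read at 11.1, 12.2, 11.7, 3.39 and 5.01 CPM in AEF373. Its libraries did not overlap, at 3.57 ± 0.37 (adjusted p = 5.72e-09).

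noah-1 (chromosome I, 5874416 to 5878958), which encodes a zona pellucida domain protein of the embryonic and larval sheath, was at 34.1, 29.0, 33.5, 28.3 and 17.02 CPM in AEF378. Its AEF373 values were 80.8, 74.6, 77.3, 41.8 and 43.8 CPM. All AEF373 libraries were higher, the batch 2 libraries being the lowest of their strain, and the difference was 1.13 ± 0.11 (adjusted p = 3.44e-09). acn-1, an angiotensin-converting enzyme-like gene of the epidermis needed for moulting, was at 6.71, 5.69, 7.92, 6.21 and 5.00 CPM in AEF378 and 27.0, 21.7, 23.7, 11.5 and 11.4 CPM in AEF373. Its libraries were apart as well, at 1.55 ± 0.18 (adjusted p = 2.39e-08). In the sum over all members of the list, AEF378 libraries were at 377, 403, 397, 372 and 298 CPM and AEF373 libraries at 648, 621, 651, 441 and 450.2 CPM.

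Cuticlins and other zona pellucida genes encode proteins of the extracellular matrix. Of 31 tested members, 13 were higher and none was lower, with a median of 0.89. cut-3 (chromosome II, 8445169 to 8446831), a cuticlin gene, was at 0.473, 0.0949, 2.03, 0.331 and 0 CPM in AEF378. In AEF373 it was at 27.5, 29.7, 43.0, 9.08 and 8.75 CPM. The strains were far apart, at 5.33 ± 0.64 (adjusted p = 5.83e-06), although counts in AEF378 were close to 0.

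cut-2 (chromosome V, 13414949 to 13416064), a cuticlin gene, was at 4.63, 1.42, 5.79, 0.745 and 1.36 CPM in AEF378. It was at 50.1, 57.0, 81.2, 17.2 and 18.3 CPM in AEF373. The difference was 4.00 ± 0.50 (adjusted p = 9.88e-06) with no overlap, and 4.00 in batch 1 and 4.08 in batch 2. dex-1, a matrix gene of epithelia and dendrites, was at 9.17, 9.58, 11.9, 6.87 and 7.19 CPM in AEF378 and 22.3, 22.3, 19.7, 13.3 and 14.2 CPM in AEF373. No libraries overlapped, at 1.03 ± 0.15 (adjusted p = 2.91e-06).

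The lipocalins of the precuticle, the transient matrix laid down before a cuticle, stood in the same direction. Of 11 tested genes of precuticle lipocalins and leucine-rich proteins, 6 were higher and none was lower, with a median of 0.70. lpr-5 was at 4.25, 3.23, 3.55, 3.48 and 0.273 CPM in AEF378 and at 13.8, 15.2, 16.05, 6.88 and 6.21 CPM in AEF373. All AEF373 libraries were above all AEF378 libraries, at 1.94 ± 0.32 (adjusted p = 0.000127). The lowest value was that of AEF378 replicate 5, far under the other libraries of its strain. sym-1, a leucine-rich repeat gene, was higher by a smaller amount, 0.70 ± 0.10 (adjusted p = 5.56e-06).

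Collagen genes did not move as one group. Of 6 tested furrow collagens, which set the circumferential furrows of the cuticle, 4 were higher and none was lower, with a median of 1.53. dpy-7 (chromosome X, 7536467 to 7537792) was at 4.92, 3.42, 4.27, 3.39 and 0.546 CPM in AEF378 and at 18.1, 17.1, 11.98, 6.28 and 8.53 CPM in AEF373. Its libraries were apart, at 1.90 ± 0.28 (adjusted p = 2.1e-05). dpy-10, dpy-2 and dpy-3 were at 1.41 ± 0.16, 1.71 ± 0.26 and 1.65 ± 0.34 (adjusted p = 5.86e-09, 8.33e-06 and 0.00167).

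Of 15 other collagens of body shape and blisters, 3 were higher and 2 lower, with a median of -1.31. sqt-3 (chromosome V, 12352745 to 12354320), a collagen of the embryonic and larval cuticle, was at 27.5, 24.7, 36.7, 20.4 and 18.2 CPM in AEF378. In the AEF373 libraries the level was 166, 151, 154, 62.2 and 69.7 CPM. No libraries overlapped, and the difference was 2.17 ± 0.26 (adjusted p = 5.56e-06). dpy-17 and dpy-14 stood near it, at 2.02 ± 0.26 and 1.95 ± 0.30 (adjusted p = 1.28e-05 and 0.000119).

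The lower genes of that list varied between libraries. dpy-5 was at 4.35, 0.190, 4.47, 0.496 and 4.55 CPM in AEF378, with 3 libraries between 4.35 and 4.55 CPM and the other 2 below 0.5 CPM, and at 0.430, 0, 0.370, 0.299 and 0.150 CPM in AEF373. dpy-4 was split in the same AEF378 libraries, at 5.58, 0.569, 6.70, 0.910 and 5.10 CPM, against 0.430, 0.395, 0.518, 0.599 and 0.224 CPM in AEF373. The strains overlapped in both genes, at -3.40 ± 0.95 and -3.09 ± 0.74 (adjusted p = 0.0244 and 0.00882). The count of lower members was 1 without any one of AEF378 replicates 1, 3 and 5 or AEF373 replicates 2, 3 and 5. sqt-1, dpy-13, sqt-2 and rol-6 had differences of -2.96, -2.09, -1.90 and -1.61 and were not called.

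Of 98 tested genes named col, 8 were higher and 4 lower, with a median of -0.04. These counts were near the shares over all genes, 5.92% and 3.68%. The higher count was 5 without AEF373 replicate 1 and 4 without AEF373 replicate 3. The lower count was 7, 2 and 9 without AEF378 replicates 2, 3 and 4. col-165 (chromosome X, 4353618 to 4354852) was at 0.0945, 0.569, 2.95, 0 and 0 CPM in AEF378 and at 32.9, 28.9, 58.6, 7.58 and 11.8 CPM in AEF373. It had the largest difference of the genes with non-overlapping libraries and a mean of at least 2 CPM, 5.37 ± 0.74 (adjusted p = 3.48e-05). col-71 was lower, at 9.27, 4.74, 6.70, 2.56 and 8.01 CPM in AEF378 and 2.24, 0.888, 2.14, 2.19 and 2.32 CPM in AEF373, without overlap, at -1.63 ± 0.35 (adjusted p = 0.00244). None of 6 adult cuticle collagens was called. col-19, the collagen switched on at the adult moult, was at -0.14 ± 0.07 (adjusted p = 0.245).

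**Figure D3:**
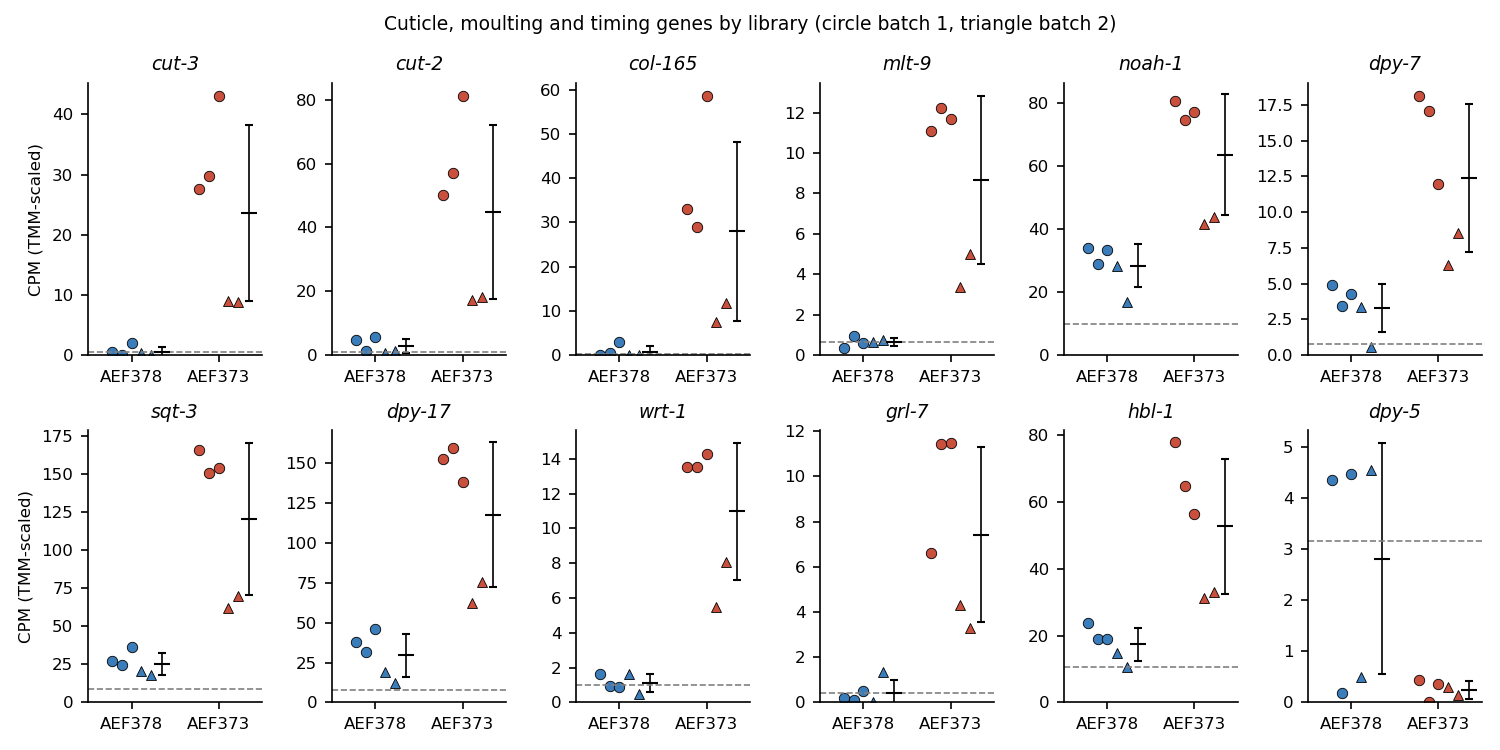
CPM in each of the 5 libraries of AEF378 (blue) and AEF373 (red) for 12 genes of the cuticle, moulting and timing lists. Circles are batch 1 and triangles batch 2, black bars the mean ± SD over 5 libraries, dashed lines the AEF231 mean. All AEF373 libraries lie above all AEF378 libraries in each panel except dpy-5, and the 2 triangles of AEF373 are its lowest libraries in the same panels.

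The hedgehog-related ligands and the patched-related receptors, both large families in the worm with roles in the epidermis and in moulting, were described next. Of 26 tested ligand genes, 7 were higher and 4 lower. wrt-1 (chromosome II, 7530996 to 7533246) was at 1.61, 0.949, 0.914, 1.65 and 0.455 CPM in AEF378 and at 13.5, 13.5, 14.3, 5.49 and 8.08 CPM in AEF373. The libraries did not overlap, at 3.21 ± 0.41 (adjusted p = 4.68e-06). grl-7, a ground-like gene, was at 3.95 ± 0.71 (adjusted p = 0.000658), from 0.431 ± 0.556 CPM in AEF378 to 7.42 ± 3.87 CPM in AEF373 (SD, n = 5 each). grd-5, a groundhog gene, was lower by a small amount, -0.49 ± 0.09 (adjusted p = 0.000234), and its libraries overlapped.

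Of 23 tested receptor genes, 6 were higher and none was lower, with a median of 0.35. ptr-18 was at 1.42, 1.71, 2.95, 1.49 and 1.82 CPM in AEF378 and at 7.14, 8.88, 8.65, 3.19 and 3.51 CPM in AEF373. All AEF373 libraries were above all AEF378 libraries, at 1.67 ± 0.24 (adjusted p = 2.76e-06). ptr-4 was at 2.09 ± 0.40 (adjusted p = 0.00127), with libraries that overlapped.

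Genes that time development were higher in part. Of 8 tested heterochronic genes, 4 were higher and none was lower. hbl-1 (chromosome X, 5822142 to 5827755), a zinc finger gene that holds early larval fates, was at 23.8, 18.97, 18.9, 14.6 and 10.7 CPM in AEF378. The AEF373 level was 78.0, 64.6, 56.3, 31.3 and 33.1 CPM. No libraries overlapped, at 1.57 ± 0.14 (adjusted p = 3.44e-09), and the difference was 1.69 in batch 1 and 1.34 in batch 2.

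lin-14, which specifies fates of the first larval stage, was at 19.2, 15.2, 18.99, 18.7 and 18.9 CPM in AEF378 and at 31.4, 28.2, 37.6, 22.2 and 23.8 CPM in AEF373. No AEF378 library reached the AEF373 range, at 0.65 ± 0.10 (adjusted p = 1.59e-05). lin-28, lin-29 and lin-41 had differences of -0.04, -0.03 and -0.04 and were not called. Of 15 transcription factors of moulting and the epidermis, 6 were higher and none was lower. The grainyhead gene grh-1 was at 0.91 ± 0.16 (adjusted p = 0.000107) and blmp-1, which primes oscillating cuticle genes, at 0.54 ± 0.11 (adjusted p = 0.000838). The moulting receptor gene nhr-23 was at -0.00 ± 0.06 (adjusted p = 0.985).

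Other genes among the largest differences belonged to the matrix or to no list. glf-1 (chromosome IV, 5885835 to 5889821), which encodes UDP-galactopyranose mutase, was at 1.13, 1.04, 1.62, 1.82 and 0.364 CPM in AEF378 and at 16.4, 17.2, 18.5, 5.69 and 8.53 CPM in AEF373. No libraries overlapped, at 3.37 ± 0.40 (adjusted p = 1.87e-06). ZC123.1, R02F11.1 and F33D4.6 were at 3.83 ± 0.39, 3.82 ± 0.43 and 3.64 ± 0.54 (adjusted p = 1.3e-08, 8.37e-09 and 6.66e-05).

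Of 49 abu and pqn genes, which encode glutamine-rich proteins, several of them of the pharyngeal cuticle, 8 were higher and 1 was lower. The shares over all genes were 5.92% and 3.68%. pqn-73 was at 2.46, 1.33, 1.32, 0.165 and 0.455 CPM in AEF378 and 10.4, 10.2, 14.6, 4.29 and 6.13 CPM in AEF373. The libraries were apart, at 3.10 ± 0.36 (adjusted p = 2.1e-07). hil-7 (chromosome IV, 6646312 to 6646972), a linker histone gene, was at 7.66, 6.55, 7.62, 3.31 and 1.55 CPM in AEF378 and at 22.8, 30.5, 36.2, 10.2 and 14.1 CPM in AEF373. No AEF378 library reached them, at 2.13 ± 0.23 (adjusted p = 1.84e-07). lea-1 (chromosome V, 10011923 to 10028168), a late embryogenesis abundant gene linked to tolerance of drying, was at 437, 535, 555, 434 and 486 CPM in AEF378. In AEF373 it was at 1206, 973, 1162, 727 and 672 CPM. The libraries were apart again, at 0.93 ± 0.12 (adjusted p = 1.16e-05).

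Set beside AEF231, the mean of AEF378 lay between AEF231 and AEF373 in each of the 6 genes that follow. These 6 were all called higher in AEF373 and were chosen by no set rule. The comparisons share AEF231 and the array libraries, so their values are given side by side only. sqt-3 was 1.62 log2 units above AEF231 in AEF378 and 3.79 in AEF373, and dpy-7 2.12 and 4.02. noah-1 was 1.58 and 2.71 above it and hbl-1 0.74 and 2.30. mlt-9 was at 0.27 in AEF378 and 3.84 in AEF373, and wrt-1 at 0.27 and 3.49. The share of genes called higher than in AEF231 was 7.68% in AEF378 and 17.9% in AEF373, and the share called lower was 5.92% and 16.9%. Of the 27 moulting effectors, 10 were higher than in AEF231 in AEF378 and 18 in AEF373.

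Levels of the cuticlin list in AEF373 were lower in batch 2 than in batch 1. Summed over the cuticlin list, AEF373 libraries were at 334, 342, 379, 180.2 and 190.1 CPM in replicates 1 to 5, of which the last 2 are batch 2. AEF378 libraries were at 130.4, 117, 136, 109 and 82.8 CPM. Each batch 2 library of AEF373 was above every AEF378 library and below every batch 1 library of AEF373. Within batch 1, 1220 genes were called (9.16%), 751 higher (5.64%) and 469 lower (3.52%) in AEF373. A 2-fold or larger change was seen in 293 of the former (2.2%) and 88 of the latter (0.661%). Within batch 2, with 2 libraries a strain, 185 were called (1.39%), 119 higher (0.894%) and 66 lower (0.496%). Here 83 (0.623%) and 18 (0.135%) changed 2-fold or more. The difference between the strains itself differed between batches in 9 genes (0.0676%). The cuticlin median was 1.08 within batch 1 and 0.89 within batch 2, and that of the moulting effectors 0.72 and 0.41.

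Markers of stages and cell types were set beside these differences. hch-1 (chromosome X, 14696411 to 14699977), which encodes the protease with which late embryos hatch, was at 8.70, 8.54, 10.2, 4.72 and 3.00 CPM in AEF378. Replicates 1 to 5 of AEF373 gave 22.5, 15.8, 19.005, 11.4 and 14.9 CPM. The strains were apart, at 1.32 ± 0.28 (adjusted p = 0.00247). hch-1 was the only gene called of 22 tested astacin metalloproteases, which had a median of 0.05. The call ended within batch 1 (1.07, adjusted p = 0.0558), within batch 2 (1.76, adjusted p = 0.0628) and with batch 1 libraries alone (1.08, adjusted p = 0.0691). None of 11 tested zygotic genes of early embryos was called. Their median was 0.22, beside -0.0033 over all genes tested, and 7 of the 11 were above 0. Without AEF373 replicate 5, 1 was called higher. Summed over all 24 genes of the list, tested or not, AEF378 libraries were at 178, 187, 174, 174 and 173 CPM. AEF373 libraries were at 167, 177, 174, 173 and 179 CPM, and the ranges overlap. The part of embryos held in the adults in the differences of cuticle genes was not tested. In whole animals, more cells of a type and more RNA per cell cannot be told apart.

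Of 23 tested pan-neuronal and synaptic genes, 7 were higher and none was lower, with a median of 0.27, beside 5.92% of all genes called higher. The count was 4 without AEF378 replicate 1 and 4 without AEF373 replicate 3. unc-13, a gene of vesicle priming, was at 0.43 ± 0.10 (adjusted p = 0.00204), with libraries that overlapped. Of 29 body wall muscle genes, 4 were higher, beside the same 5.92%, and the median was 0.07. The myosin gene myo-3 led them, at 0.39 ± 0.08 (adjusted p = 0.00199). Of 3 coelomocyte genes, unc-122 was called and the other 2 were not. None of 5 glial genes was called. Of 37 oogenic germ line and eggshell genes 1 was higher, with a median of -0.0043. That count was 0 without any one of AEF378 replicates 1, 3 and 4 or AEF373 replicates 1 and 4, and 2 without AEF373 replicate 5. In the 8 lists with no call in edgeR's test, 10 of 80 members had an unadjusted p below 0.05, and DESeq2 called 0. Over all 13315 genes tested, 3074 had an unadjusted p below 0.05. Lists without a call were picked by these same p-values, so the shares are not alike.

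**Figure D4:**
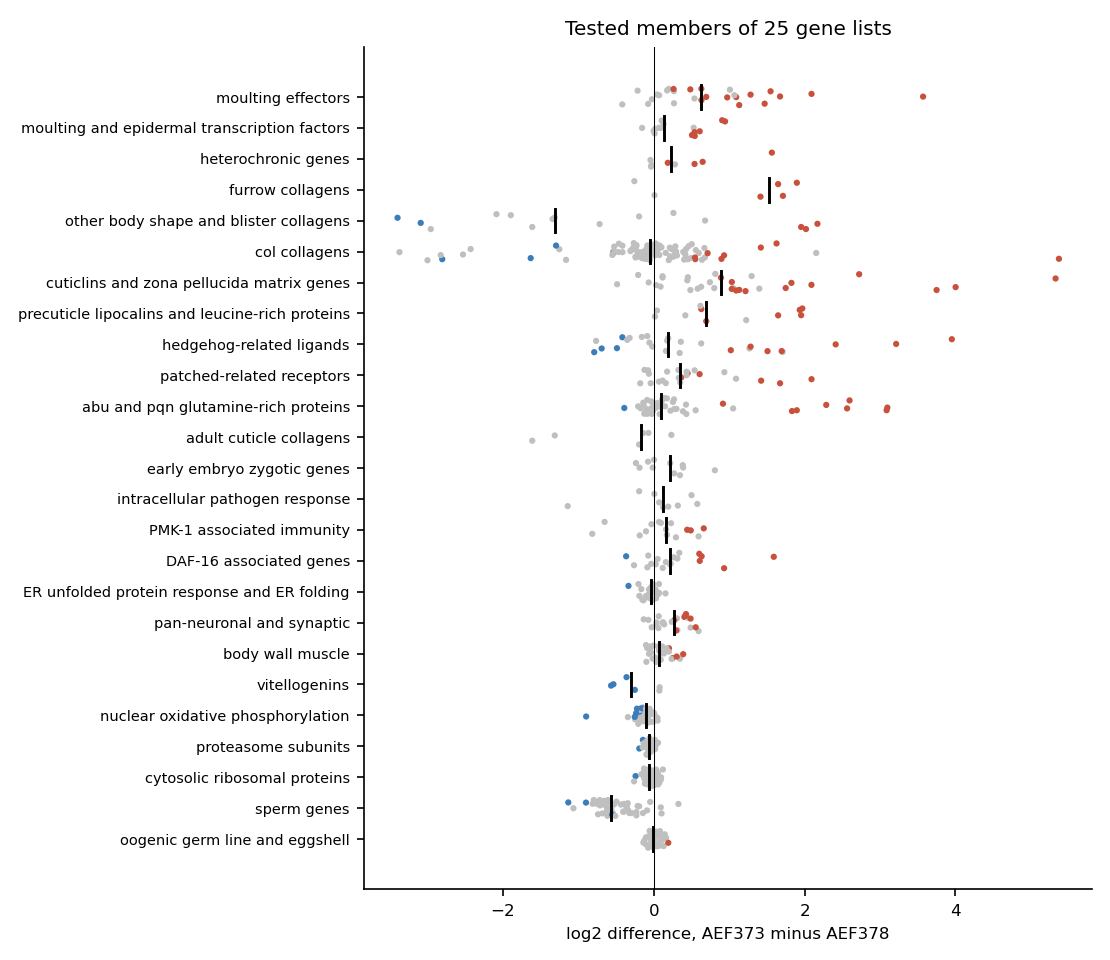
Log2 differences, AEF373 minus AEF378, of the tested members of 25 gene lists. Each point is a gene, red where called higher and blue where called lower in AEF373, grey where not called, and black lines are the list medians. The cuticlin, moulting, furrow collagen and precuticle rows reach far to the right, and the ribosomal, proteasome and oxidative phosphorylation rows have medians near 0, with gas-1 of the last at -0.90.

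Most yolk genes were called lower in AEF373, while their summed reads overlapped between the strains. Of 6 tested vitellogenins, which encode the yolk proteins made in the intestine, 4 were lower and none was higher, beside 3.68% of all genes called lower. Their sum lay between 55888 and 67604 CPM in AEF378 and between 50495 and 68239 CPM in AEF373. The call of vit-5 ended without any one of AEF378 replicates 2 and 5 and AEF373 replicates 3 and 5. vit-3 (chromosome X, 3567355 to 3572549) was at 2590.2, 2711, 2731, 3017 and 3595 CPM in AEF378. Its AEF373 values were 1978, 1758, 1412, 2588 and 2223 CPM. The libraries of the strains met without overlap, at -0.57 ± 0.08 (adjusted p = 4.29e-06). vit-4 was at -0.36 ± 0.06 (adjusted p = 5.76e-05). Both lay among 5 neighbouring genes on X that were all called lower, from vit-4 to ckc-1 (3558769 to 3578830). Of these, F59D8.3 (3563816 to 3563991) overlaps vit-4 and T27A10.8 (3572379 to 3572566) overlaps vit-3, so that they may share reads. Some vit genes are near-identical copies, and the split of their reads among copies is uncertain.

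Some genes of mitochondrial energy production were lower, most of them by small amounts. Of 48 tested nuclear genes of oxidative phosphorylation, 8 were lower and none was higher, with a median of -0.10, beside 3.68% of all genes called lower. The count was 5 without AEF378 replicate 4 and 5 without AEF373 replicate 4. gas-1 (chromosome X, 15586786 to 15590397), a complex I subunit, was at 183, 226, 195, 222 and 229 CPM in AEF378. In AEF373 it was at 113, 109, 101, 124 and 121 CPM. No libraries overlapped, at -0.90 ± 0.06 (adjusted p = 2.31e-15), the widest difference of the list. gas-1 was 0.63 log2 units from AEF231 in AEF378 and -0.26 in AEF373. usp-33, close to it on X (15591368 to 15595387), was lower as well, at -1.23 ± 0.08 (adjusted p = 2.35e-15). Whether position bears on the difference in gas-1 was not tested. nuo-2, another complex I subunit, was at -0.23 ± 0.05 (adjusted p = 0.000674).

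Lists of protein synthesis and turnover held few calls. Of 79 ribosomal protein genes 1 was lower, rpl-28 at -0.24 ± 0.06 (adjusted p = 0.00378), and of 33 proteasome genes 2 were lower, with pas-6 at -0.19 ± 0.05 (adjusted p = 0.00726). The proteasome count was 1 without any one of AEF378 replicates 1, 2, 4 and 5 or AEF373 replicates 1, 3 and 5. Of 30 genes of the ER unfolded protein response and folding, 1 was lower, pek-1, which encodes the ER stress kinase PERK, and the count was 2 without AEF378 replicates 1 or 4. pek-1 was at 69.5, 70.4, 78.7, 67.4 and 68.9 CPM in AEF378 and 61.0, 60.0, 52.0, 57.7 and 51.1 CPM in AEF373. The libraries were apart by a small amount, at -0.34 ± 0.06 (adjusted p = 0.000107). None of 4 tested inducible heat shock genes and none of 9 genes of the mitochondrial stress response was called.

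Sperm genes were read at levels that differed by batch. Of 55 tested members, 3 were lower in AEF373 and none was higher, with a median of -0.57, -1.01 within batch 1 and -0.09 within batch 2. The count of lower members was 15 within batch 1 and 0 within batch 2, while the test of a difference between batches called none of them. Their sum was 461, 201, 287, 528 and 513 CPM in AEF378 and 185, 102, 211, 473 and 506 CPM in AEF373. The batch 2 libraries of both strains lay together, and in batch 1 AEF373 replicate 3 lay above AEF378 replicate 2. The lower count was 1 without AEF378 replicate 1 or AEF373 replicates 1, 2 or 3, and 8 without AEF378 replicate 2 or AEF373 replicate 5. msp-152, a major sperm protein gene with near-identical copies, was at -0.90 ± 0.19 (adjusted p = 0.00108) and overlapped.

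Defence and detoxification lists are given beside the 9.6% of all genes that were called. None of 9 genes of the intracellular pathogen response differed past the threshold between the strains, while 8 were higher than in AEF231 in each of them. Of 15 genes associated with the PMK-1 kinase, 3 were higher, a count of 1 without any one of AEF378 replicates 1, 2, 4 and 5 or AEF373 replicates 3 and 5. Of 11 lysozymes, lys-7 was higher at 0.63 ± 0.12 and ilys-5 lower at -0.38 ± 0.07 (adjusted p = 0.000954 and 0.000126), both with overlap. Of 87 C-type lectins, 7 were higher and 5 lower. The higher count was 4 without AEF378 replicates 2 or 3 or AEF373 replicate 3, and the lower count 3 without AEF378 replicates 1 or 5 or AEF373 replicates 1, 2 or 3. clec-78 was at 8.41, 8.16, 8.63, 5.13 and 4.19 CPM in AEF378 and 34.7, 29.1, 31.5, 13.8 and 12.7 CPM in AEF373. The libraries were apart, at 1.77 ± 0.29 (adjusted p = 0.000211).

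Of 19 genes associated with the transcription factor DAF-16, 5 were higher and 1 was lower. Among 49 cytochrome P450 genes, 2 were higher and 3 lower, and 4 were higher without AEF373 replicate 4. cyp-13B1 (chromosome X, 13406674 to 13409643) was at 1.61, 1.52, 1.73, 0.993 and 0.819 CPM in AEF378 and at 9.03, 9.67, 12.1, 5.09 and 7.48 CPM in AEF373. No libraries overlapped, at 2.704 ± 0.28 (adjusted p = 1.02e-09).

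Among genes with non-overlapping libraries and a mean of at least 2 CPM, the 10 with the largest differences towards a lower level in AEF373 mostly carried clone names, and apart from col-71 they were in none of the lists. C07G1.7 (chromosome IV, 8210906 to 8211847) was at 20.5, 13.9, 16.8, 16.1 and 23.6 CPM in AEF378 and at 5.16, 4.54, 4.14, 6.88 and 6.28 CPM in AEF373. The libraries were far apart, at -1.76 ± 0.18 (adjusted p = 2.69e-09). Y47G6A.15, Y51H7C.13 and F41G4.13 were at -1.97 ± 0.39, -1.94 ± 0.32 and -1.84 ± 0.25 (adjusted p = 0.000598, 7.33e-05 and 9.05e-07). Several of the lowest genes lay close together on chromosomes II and X, among them Y51H7C.13 and Y51H7C.1, and F41G4.13 and F41G4.7.

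Position along the chromosomes was therefore described. The rule was set after these values were seen, so that no test goes with it. Among 8996 tested genes with a known position and a mean of at least 5 CPM, runs of at least 4 neighbours that were all called in one direction were listed, and there were 8. The longest were of 20 and 17 genes, both on chromosome II, and the other runs held at most 5. With a minimum of 2 CPM instead there were 10 runs, and uncalled genes between them split the longest into runs of 19 and 8 genes and of 9 and 15. Of the 30 genes with the smallest p-values, 13 lay on chromosome II and 6 on X. On chromosome II, 7.49% of tested genes were higher and 4.03% lower, on X 8.13% and 5.04%, and on chromosome I 4.52% and 3.92%.

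The run of 20 genes lay on chromosome II between 2988300 and 3222034 (WBcel235), from lido-7 to ZC239.14. All of it was higher in AEF373, with a median of 0.68, or 1.60-fold. It counts K08A2.10, an entry that spans only 2996388 to 2996407. copb-1, which encodes a subunit of the COPI coat of transport vesicles, was at 253, 259.6, 268, 268 and 283 CPM in AEF378. In the AEF373 libraries the level was 473, 404, 393, 460.1 and 411 CPM. No libraries overlapped, at 0.69 ± 0.06 (adjusted p = 2.38e-12). Y25C1A.13 was at 1.18 ± 0.08 (adjusted p = 7.55e-15) and lin-8, a gene of the synthetic multivulva class, at 0.68 ± 0.10 (adjusted p = 4.48e-06).

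Against AEF231, the 20 genes had a median of 0.06 in AEF378 and 0.69 in AEF373, and 19 were higher in AEF373. The exception was T10D4.6, at -1.16 in AEF378 and -0.16 in AEF373. The median difference between the array strains was 0.72 within batch 1 and 0.66 within batch 2. Of the 24 nearest neighbours of the same expression filter, 12 on each side, 1 was called, as higher, and the median of the 24 was -0.03.

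The run of 17 genes lay on chromosome II between 1368102 and 1782574, from rog-1 to math-4. All of it was lower in AEF373, with a median of -0.78. The libraries of the strains overlapped in none of the 17. The 17 were picked as called lower, so the 2.56% of all genes lower without overlap is no like background. Of all 490 genes called lower, 221 were without overlap and had a mean of at least 2 CPM. nhx-6, inside the run, was at -1.53 ± 0.43 (adjusted p = 0.0268). Its call ended without any one of AEF378 replicates 4 and 5 and AEF373 replicates 3, 4 and 5. The call ended within each batch as well, and without it the run is split at nhx-6. emc-1, which encodes a subunit of the ER membrane protein complex, was at 325, 339.7, 348, 330.5 and 347 CPM in AEF378. The AEF373 level was 209, 190.2, 176, 219.6 and 188 CPM. The strains were clearly apart, at -0.78 ± 0.06 (adjusted p = 1.35e-12). cogc-4, of the Golgi tethering complex COG, was at -0.57 ± 0.06 (adjusted p = 2.66e-09) and nol-6, a nucleolar protein gene, at -0.47 ± 0.07 (adjusted p = 1.2e-05).

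Here the strain that differed from AEF231 was AEF378. The median against AEF231 was 0.57 in AEF378, with 16 of 17 genes called higher, and -0.12 in AEF373, with 1 higher and 4 lower. Within batch 1 the median difference between the array strains was -0.82 and within batch 2 -0.73. Of the 24 nearest neighbours, 4 were called, 1 higher and 3 lower, the direction of the run. fbxb-97, beyond math-4, was among the lower ones, at -0.85 (adjusted p = 2.36e-05). The median of the 24 was 0.05. The math and btb genes of this run belong to large families of similar genes, so that their single values are uncertain.

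A shorter run of 4 genes on X, from F41G4.7 to acs-9 (16834896 to 16880526), was lower in AEF373 with a median of -1.13. T20F7.1 in it was at 134, 173, 149, 140.2 and 158 CPM in AEF378. In AEF373 it was at 64.0, 64.9, 68.8, 73.7 and 71.3 CPM. The strains were widely apart, at -1.14 ± 0.06 (adjusted p = 1.02e-17). It stood 0.75 log2 units from AEF231 in AEF378 and -0.39 in AEF373. The labels do not say where the arrays' strains differ along the chromosomes, and the cause of the runs was not tested.

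**Figure D5:**
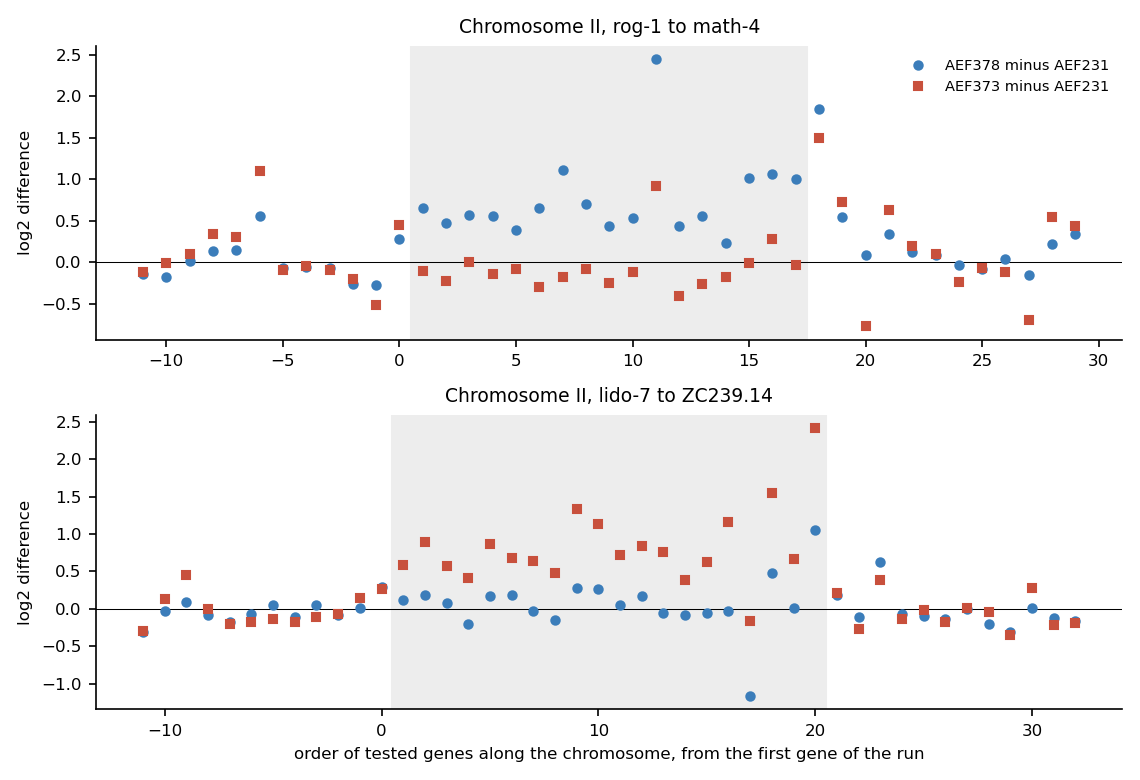
Log2 difference from AEF231 in AEF378 (blue circles) and AEF373 (red squares) for tested genes in their order along chromosome II, around the 17-gene run (upper panel) and the 20-gene run (lower panel), both shaded. In the upper panel AEF378 stands above AEF373 in each shaded gene, in the lower panel AEF373 stands above AEF378, and outside the shading the symbols mostly lie close to each other.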

How the data were processed

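Whole adults gave the RNA (Trizol, then a column) and poly(A) RNA the libraries, per the labels' protocols. What the authors deposited are raw counts, whole numbers of reads per gene symbol and library, for 42533 symbols and 26 libraries. STAR 2.7.11b and the build ce11 are named in the submitters' processing notes. The counting tool and the strand setting, annotation and filters it used were not given in the sources used here. Overlapping or antisense genes may therefore share reads. Symbols were matched to the Ensembl annotation of WBcel235, the assembly of ce11, 584 of them through RefSeq locus tags, and 41366 matched. Unmatched symbols took 0.502% of all reads.

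Counts were used as deposited. edgeR 4.0.16 (R 4.3.3) was run with filterByExpr by strain (13315 genes left), TMM scaling and robust quasi-likelihood fits of strain and batch to all 26 libraries. p was adjusted by Benjamini-Hochberg over the 13315 genes and a gene called under 0.05. CPM values are edgeR's on the TMM scale. The common biological coefficient of variation was 8.01%. Within-batch differences came from a fit with 1 term for each strain in each batch. Lists are described by counts and medians, with no set test. The rule for named genes took the array genes, the 10 largest non-overlapping differences each way with a mean of at least 2 CPM, up to 4 called members of a list, all members of lists of at most 8 genes, and 5 genes that differed between batches. egl-6, egl-3, nhr-23, usp-33, dyf-3, ztf-28, uncalled collagens, genes in and beside the runs along chromosomes and the run rule were chosen after their values were seen. The lists, comparison and rules were chosen with earlier results of these data known.

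The alternatives comprised 2 other size factors, DESeq2 1.42.0, other filters and thresholds, no batch term, single batches, only the 10 libraries, a replicate block, no robust weights, each library left out and, added after the data were seen, removal of the longest runs. Pairs of replicate libraries differed beyond sampling noise, at a chi-square per gene of 3.97 to 12.9. On simulated counts for this comparison over 13315 genes, 58 of 100 changes of 0.5 log2 and 89 of 100 of 1 log2 were called, with 5 false calls among 13115 unchanged genes.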

Additional observations from a re-analysis of the deposited data

Results flagged for a closer look

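Single libraries stood apart from the other 4 of their strain in 9 genes of the report, out of 162 groups of 5 libraries examined, about as often as chance gives (1 in 20). In AEF378 replicate 3, col-165 was at 2.95 CPM against at most 0.569 in the others, and cut-3 at 2.03 CPM against at most 0.473. In the same library ptr-18 was at 2.95 CPM against at most 1.82, and pek-1 at 78.7 CPM against at most 70.4. lin-14 was at 15.2 CPM in AEF378 replicate 2 against at least 18.7 in the others. lpr-5 was at 0.273 CPM in AEF378 replicate 5 against at least 3.23. col-71 was at 0.888 CPM in AEF373 replicate 2 against at least 2.14. cogc-4 was at 159 CPM in AEF378 replicate 3 against at most 133, and lido-7 at 26.8 CPM in AEF373 replicate 5 against at most 24.0. Of the 9 differences, those of the first 7 were tested with each library left out and kept their call.

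The difference between the strains itself differed between the batches in 9 genes (0.0676% of those tested, adjusted p below 0.05 in edgeR's quasi-likelihood test of the interaction with Benjamini-Hochberg adjustment), and 880 had an unadjusted p below 0.05. In each of the 9 it was above 0 within batch 1 and below 0 within batch 2. sqst-1, which encodes an autophagy receptor, was at 58.8, 61.0, 66.9, 62.4 and 66.5 CPM in AEF378 and 102, 87.3, 100.4, 57.5 and 58.2 CPM in AEF373, where replicates 4 and 5 are batch 2. The 3 batch 1 libraries of AEF373 lay above all AEF378 libraries and its 2 batch 2 libraries below all of them. Its difference was 0.64 in batch 1 and -0.16 in batch 2, a change of -0.794 between batches (interaction adjusted p = 0.00191). ugt-62, a UDP-glucuronosyltransferase gene, differed by -0.797 between batches (adjusted p = 0.00191), with 0.63 in batch 1 and -0.17 in batch 2. ZK1055.7 and T19D12.4 differed by -1.12 and -1.18 (adjusted p = 0.00192 for both), and cest-25, a carboxylesterase gene, by -0.658 (adjusted p = 0.0065). Of these 5, cest-25 alone passed the threshold within batch 2, at -0.36 ± 0.09 (adjusted p = 0.0362). What differed between the batches was not tested.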

How the results depend on the processing

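The difference in flp-17 kept its direction and its call in each alternative run, and lay between 5.25 and 5.40 with single libraries left out. The count of called genes in either direction, 1278, ranged from 996 to 1278 with single libraries left out, the higher count from 659 to 856, the lower count from 326 to 453, and the counts of at least 2-fold differences from 234 to 305 and from 36 to 53. The lower count was 326 without AEF373 replicate 1, against 490. Within batch 2, 185 genes were called, 119 higher and 66 lower, and 83 and 18 by at least 2-fold. Within batch 1, 88 were lower by at least 2-fold. At a threshold of 0.01, 700 were called, 472 higher and 228 lower, and 29 lower by at least 2-fold. The label numbers of the strains were not shown to pair the libraries, since the correlations of same-numbered libraries from their strain means were -0.0148, 0.258, 0.0977, 0.192 and 0.208. With a replicate block, 1215 genes were called in 26 libraries (773 higher, 442 lower) and 852 in the 10 libraries (589 higher, 263 lower), and flp-17 was at 5.30 and 5.29. The count of genes that differed between batches, 9, was 61 with no filter, 29 with only the 10 libraries, and 2 to 14 with single libraries left out, 2 without AEF373 replicate 5 and 14 without AEF378 replicate 1. gcy-31, not called, ranged from -0.37 to 0.07 with single libraries left out and turned its sign without AEF378 replicate 1 (0.0691) or AEF373 replicate 1 (0.0341). DESeq2 called 1412 genes, among them 1270 of the 1278. Of 145 named genes that were called, none reversed in the alternatives run, and within batch 2, where the fit rests on 2 libraries a strain, 111 missed the threshold. Without the genes of the longest runs, 140 of 143 stayed called. The cause of the smaller counts within batch 2 was not tested beyond the number of libraries. Depth limits genes such as cut-3 and col-165, which were at 0 CPM in some AEF378 libraries.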
